A study of Mus musculus with 69 samples.

Results

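Toll-like receptors are membrane proteins with which macrophages recognise molecules of bacteria, viruses and other microbes. The 10 mouse genes of this family examined here, Tlr1 to Tlr9 and Tlr13, were taken by name. All 10 were found among the 24537 genes listed in the tables of parental macrophages. They were also found in the 2 tables of F1 hybrid macrophages, which list 24527 genes. A gene was tested where it reached 1 TPM (a level scaled for transcript length and to a common library total) in at least 2 libraries of its table. All of them but Tlr5, 9 of the 10, met this rule in each of the 3 tables of parental cells.

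The cells were bone marrow-derived macrophages (BMDMs) of adult female mice, grown for 7 days with M-CSF and left untreated (basal) or given mouse recombinant IL-4 at 20 ng/mL. Poly A RNA was sequenced from BMDMs of 5 inbred strains, the laboratory strains C57BL/6J (C57), NOD/ShiLtJ (NOD) and BALB/cJ (BALB) and the wild-derived SPRET/EiJ (SPRET) and PWK/PhJ (PWK), untreated and after 24 h of IL-4, with 3 libraries per group except for 2 of untreated PWK, 29 libraries in all. A second table held C57 and SPRET at basal and after 1, 6 and 24 h of IL-4, with 2 libraries per time, and another held the same times in Egr2 fl/fl and LyzM-Cre Egr2 fl/fl macrophages, also with 2 libraries each. The Cre of LyzM-Cre is driven by the lysozyme promoter, which is active in myeloid cells generally, and the Egr2 fl/fl controls carry the floxed alleles too. F1 hybrids of C57 with NOD and of C57 with SPRET, which carry both parental alleles, gave 2 untreated and 2 IL-4 libraries per cross. The study's methods call the libraries of a group biological replicates without saying whether each came from its own animal or culture, and p-values measure the spread between these libraries.

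Toll-like receptors divide by place and ligand. Tlr2, which pairs with Tlr1 or Tlr6 to bind bacterial lipopeptides, Tlr4, which binds lipopolysaccharide together with its partner Ly96, and Tlr5, which binds flagellin, work mainly at the cell surface. Tlr3, Tlr7, Tlr8, Tlr9 and Tlr13 sit in endosomes and recognise nucleic acids: double-stranded RNA for Tlr3, single-stranded RNA or its breakdown products for Tlr7 and Tlr8, DNA with unmethylated CpG for Tlr9 and bacterial ribosomal RNA for Tlr13. All but Tlr3 signal through the adaptor Myd88 to NF-κB and interferon regulatory factors, whereas IL-4 acts through its own receptor and the transcription factor STAT6 and moves macrophages toward an alternatively activated state.

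The RefSeq promoter table of build GRCm38.p6 had entries for 8 of the 10 receptors, with 10 promoters in all, and none for Tlr4 or Tlr7. The promoters of 3 receptors are printed here because Tlr8 and Tlr2 changed with IL-4 in all 5 strains and Tlr13 changed in opposite directions, the 250 bases before the start, 5′ to 3′ on the gene's own strand. Capitals mark matches, on either strand, to letters bound by factors of IL-4-treated macrophages: TTCNNNNGAA for STAT6, GTGGGNG for EGR factors, TTGCNNAA for C/EBP factors and AGGAAGT for PU.1. The Tlr8 promoter lies at chrX:167264330-167264579 on the minus strand, that of Tlr2 at chr3:83841609-83841858 on the minus strand and that of Tlr13 at chrX:106143025-106143274 on the plus strand.
Tlr8: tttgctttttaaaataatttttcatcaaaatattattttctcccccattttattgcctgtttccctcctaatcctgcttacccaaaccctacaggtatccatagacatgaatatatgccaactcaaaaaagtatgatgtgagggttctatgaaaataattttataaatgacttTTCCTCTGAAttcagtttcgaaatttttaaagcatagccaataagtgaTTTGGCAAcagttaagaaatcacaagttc
Tlr2: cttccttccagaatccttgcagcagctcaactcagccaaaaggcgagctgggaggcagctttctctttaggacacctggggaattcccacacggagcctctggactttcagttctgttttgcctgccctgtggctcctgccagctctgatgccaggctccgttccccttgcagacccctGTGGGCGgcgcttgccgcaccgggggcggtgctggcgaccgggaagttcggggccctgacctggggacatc
Tlr13: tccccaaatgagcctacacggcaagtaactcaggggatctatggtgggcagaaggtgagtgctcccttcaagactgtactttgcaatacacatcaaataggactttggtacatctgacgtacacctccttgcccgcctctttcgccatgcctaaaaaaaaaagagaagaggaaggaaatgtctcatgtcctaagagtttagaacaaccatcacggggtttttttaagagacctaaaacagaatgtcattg
Tlr8 was the receptor whose promoter held the STAT6 letters, 77 to 68 bases before the start, and it also held the C/EBP letters 29 to 22 bases before the start. The Tlr2 promoter held the EGR letters 71 to 65 bases before the start, and the Tlr13 promoter held none of the 4 motifs. Among the other receptors the EGR letters were in promoters of Tlr5, Tlr6 and Tlr9, the PU.1 letters in promoters of Tlr1 and Tlr6 and the C/EBP letters in promoters of Tlr3 and Tlr6. In the same 250 bases of all 32851 promoters of the table, the share with a match was 5.85% for STAT6, 28.1% for EGR, 9.56% for C/EBP and 7.69% for PU.1. A match is a description of letters and not of binding.

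Libraries held 7.02 M to 22.5 M tags in the 5-strain table, 5.70 M to 24.0 M in the time course and 4.69 M to 32.9 M in the Egr2 table. Macrophage markers summed to 9325 to 30188 TPM per library of the 5-strain table, with 6 or 7 of 7 at 1 TPM or more, while 3 T cell markers summed to at most 0.322 TPM and 4 B cell markers to at most 3.76 TPM. The list of 8 neutrophil and granulocyte precursor markers summed to 551 to 601 TPM in PWK and 249 to 404 TPM in SPRET, against 15.2 to 131 TPM in the other strains, led by S100a8, with Ly6g at 0 or near it. This sum was lower after IL-4 in C57 (106 to 131 TPM untreated and 16.8 to 24.4 TPM treated), BALB (53.0 to 60.0 and 18.1 to 19.8 TPM), NOD (40.9 to 52.7 and 15.2 to 18.9 TPM) and SPRET (344 to 404 and 249 to 274 TPM), and in PWK the ranges met (552 to 558 and 551 to 601 TPM). Of 4 fibroblast markers, Dcn reached 204 TPM in untreated PWK cells and 107 TPM after IL-4 and stayed at or below 15.9 TPM in the group means of the other strains, while Col1a1, Col1a2 and Col3a1 were under 1 TPM. The part of either list in the strain differences or in the IL-4 changes of the receptors was not tested, and in bulk RNA fewer cells of a type and less RNA per cell cannot be told apart.

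In untreated macrophages the 10 receptors summed to 209 TPM in SPRET and 86.3 TPM in NOD, with C57, PWK and BALB between them at 157, 148 and 144 TPM. Tlr13 was the highest receptor in C57 and Tlr2 in the other strains. Tlr2 and Tlr13 together made up 58.4% to 75.2% of the sum. After 24 h of IL-4 the sum of SPRET was 150.5 TPM and that of NOD 60.6 TPM, with C57 at 122, PWK at 120.0 and BALB at 96.3 TPM. Tlr8 was then the highest receptor in SPRET, where it made up 33.6% of the sum, Tlr13 in C57 and BALB and Tlr2 in NOD and PWK.

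**Figure D1:**
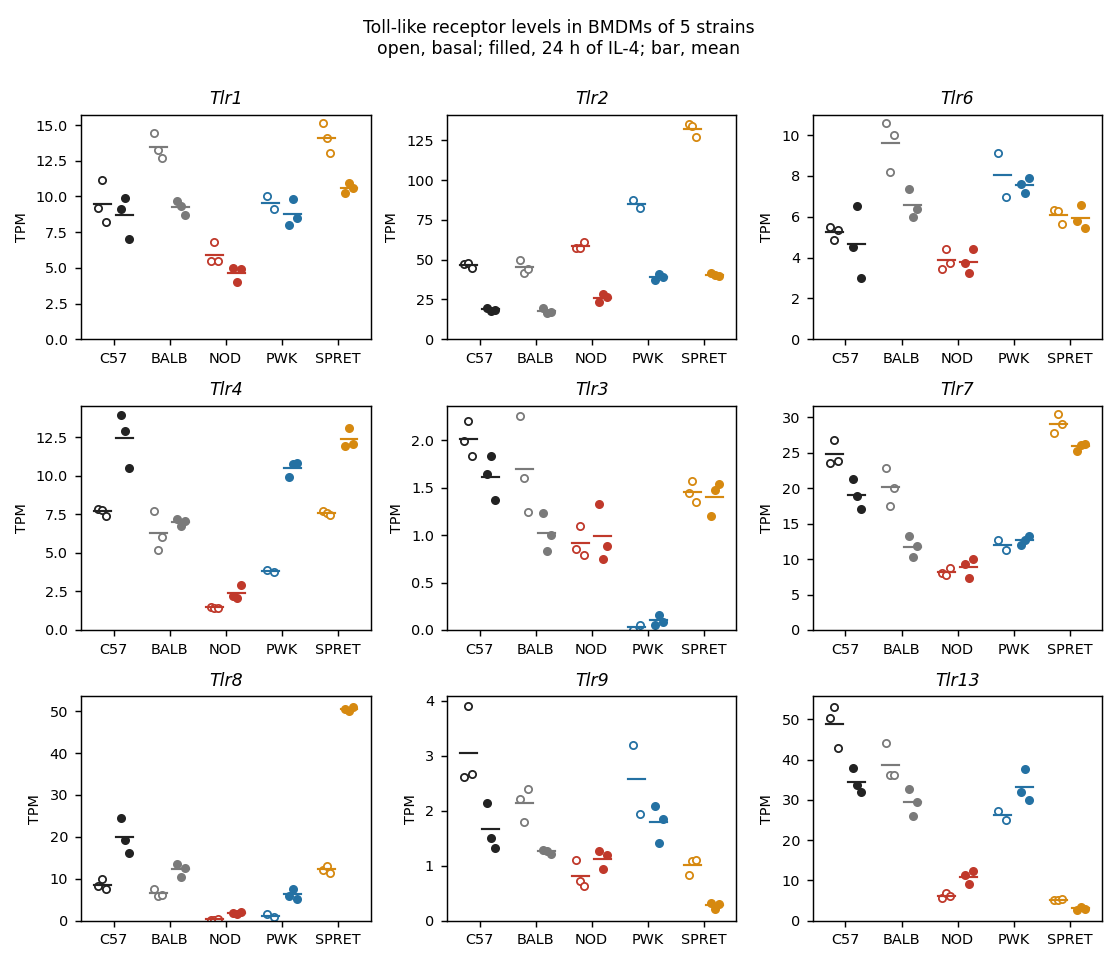
Level of each tested Toll-like receptor in TPM in every library of the 5 strains, untreated and after 24 h of IL-4. Tlr13 separates C57, BALB and PWK (25.1 TPM and above) from NOD and SPRET (12.2 TPM and below), and Tlr8 after IL-4 runs from about 1.58 TPM in NOD to 51.0 TPM in SPRET.

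Among the surface receptors, Tlr2 fell after 24 h of IL-4 in every strain. In C57 it stood at 47.4, 47.9 and 44.8 TPM untreated and at 19.7, 18.0 and 18.6 TPM after IL-4, and in BALB at 50.0, 41.9 and 44.4 TPM against 19.8, 16.4 and 17.2 TPM. In NOD it went from 57.4, 57.3 and 61.2 TPM to 23.1, 28.3 and 26.6 TPM and in PWK from 87.2 and 82.7 TPM to 37.3, 41.1 and 39.0 TPM. SPRET had the highest untreated level, 135, 134 and 127 TPM, and came down to 41.3, 40.1 and 40.0 TPM. No IL-4 library reached the lowest untreated library of its strain. On the log2(TPM + 1) scale the change was -1.27 ± 0.07 (SE, adjusted p = 1.4e-13) for C57, -1.31 for BALB and -1.15 for NOD, and -1.10 and -1.68 for PWK and SPRET, with the largest adjusted p of the 5 at 5.9e-11 (limma, Benjamini-Hochberg over 11907 genes). Untreated SPRET, PWK and NOD cells held more Tlr2 than C57 by 1.48 (adjusted p = 1.3e-15), 0.85 (adjusted p = 1.2e-09) and 0.32 (adjusted p = 0.00026), whereas BALB and C57 did not differ (-0.04, adjusted p = 0.67, 95% interval -0.18 to 0.11).

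The partners of Tlr2 changed less. Tlr1 fell in BALB from 14.4, 13.3 and 12.7 TPM to 9.66, 9.35 and 8.70 TPM (-0.50, adjusted p = 0.0011) and in SPRET from 15.2, 14.1 and 13.0 TPM to 10.2, 10.9 and 10.6 TPM (-0.38, adjusted p = 0.0071). Its change was -0.12 in C57 and in PWK, without passing the test. In NOD the change of -0.29 passed with all libraries (adjusted p = 0.047) but not without NOD basal replicate 1 or 2 or NOD IL-4 replicate 2 or 3, where the adjusted p was 0.053, 0.22, 0.20 and 0.058. Tlr6 ranged from 3.00 to 10.6 TPM over all 29 libraries. Its change passed in BALB alone of the 5 single-strain tests (-0.48, adjusted p = 0.015), and there not without BALB basal replicate 1 (-0.41, adjusted p = 0.081) or BALB IL-4 replicate 2 (-0.43, adjusted p = 0.072). In no strain did the response of Tlr1 or Tlr6 differ from that of C57 past the test in this table.

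Tlr4 moved the other way. IL-4 took it from 7.87, 7.80 and 7.38 TPM to 13.9, 12.9 and 10.5 TPM in C57 (0.62 ± 0.10, adjusted p = 2.6e-05) and from 7.70, 7.60 and 7.43 TPM to 11.9, 13.1 and 12.0 TPM in SPRET (0.64, adjusted p = 1.4e-05). In PWK it rose from 3.91 and 3.75 TPM to 9.92, 10.8 and 10.8 TPM (1.25, adjusted p = 4.9e-09), a larger rise than in C57 (difference 0.63, adjusted p = 0.0042). NOD held the least Tlr4, 1.50, 1.45 and 1.43 TPM untreated and 2.23, 2.04 and 2.93 TPM after IL-4 (0.46, adjusted p = 0.0012). BALB libraries overlapped, at 7.70, 5.20 and 6.04 TPM and then 7.18, 6.77 and 7.05 TPM (0.14, adjusted p = 0.29). The untreated levels ranked C57, SPRET, BALB, PWK and NOD. C57 and SPRET did not differ (-0.02, adjusted p = 0.89, 95% interval -0.22 to 0.18), while NOD lay at -1.82 ± 0.10 (adjusted p = 4.4e-14) and PWK at -0.85 (adjusted p = 6.1e-07) from C57. Tlr5 was at or below 0.306 TPM in every library of this table and listed at 0 in all NOD and SPRET libraries.

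Among the endosomal receptors, Tlr8 rose in every strain. The libraries of C57 went from 8.37, 10.0 and 7.53 TPM to 24.5, 19.2 and 16.2 TPM, and those of BALB from 7.54, 5.97 and 6.19 TPM to 13.6, 10.4 and 12.7 TPM. NOD held the least, 0.201, 0.201 and 0.539 TPM untreated and 1.85, 1.58 and 2.20 TPM after IL-4. PWK went from 1.52 and 0.934 TPM to 5.97, 7.69 and 5.29 TPM. SPRET had the highest level in both states, 12.1, 13.1 and 11.5 TPM and then 50.5, 50.1 and 51.0 TPM. Untreated and IL-4 libraries did not overlap in any strain. On the log2(TPM + 1) scale the change was 1.96 in SPRET (adjusted p = 3.4e-11), 1.72 ± 0.16 in PWK (adjusted p = 9.4e-09), 1.14 in NOD (adjusted p = 1.7e-06), 1.11 ± 0.15 in C57 (adjusted p = 9.6e-07) and 0.81 in BALB (adjusted p = 0.00012). Without C57 IL-4 replicate 1 the C57 change was 0.96, under 2-fold, and still passed the adjusted p. Since 1 TPM was added before the logarithm, the change of low genes such as Tlr8 in NOD and PWK is understated. The order of the wild-derived strains and NOD turns without it, with ratios of mean TPM of 5.99 in NOD, 5.15 in PWK, 4.13 in SPRET, 2.31 in C57 and 1.86 in BALB. The NOD ratio divides by an untreated mean of 0.314 TPM (SD 0.195), under 1 TPM, so its place in that order is uncertain. The untreated order was SPRET, C57, BALB, PWK and NOD, in which C57 and BALB were the only neighbours whose difference did not pass (adjusted p = 0.057); NOD lay at -2.88 ± 0.15 (adjusted p = 5.3e-15) and PWK at -2.12 (adjusted p = 3.0e-11) from C57. Between NOD and SPRET the difference was -3.34 untreated and -4.17 after IL-4 (adjusted p = 9.2e-17 and 8.7e-19). The SPRET response exceeded that of C57 by 0.85 ± 0.21 (adjusted p = 0.0024).

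Tlr13, a receptor for bacterial ribosomal RNA, differed between strains and changed in opposite directions with IL-4. C57 libraries held 50.4, 53.2 and 42.8 TPM untreated and 38.0, 33.8 and 31.9 TPM after IL-4 (-0.48, adjusted p = 0.001), and SPRET libraries 5.03, 5.18 and 5.32 TPM and then 2.74, 3.44 and 3.04 TPM (-0.60, adjusted p = 6.9e-05). In NOD the level went up from 5.65, 6.85 and 6.23 TPM to 11.3, 9.22 and 12.2 TPM (0.71, adjusted p = 2.0e-05). PWK values were 27.2 and 25.1 TPM and then 32.1, 37.6 and 29.9 TPM (0.33, adjusted p = 0.052), and BALB values 44.0, 36.1 and 36.1 TPM and then 32.8, 25.9 and 29.4 TPM (-0.39, adjusted p = 0.0077, not passing without BALB basal replicate 1 or BALB IL-4 replicate 2, where it was -0.30 with adjusted p = 0.072 and 0.065). The NOD response differed from that of C57 by 1.2 ± 0.15 (adjusted p = 2.1e-06) and the PWK response by 0.81 (adjusted p = 0.00079). Untreated SPRET lay at -3.01 ± 0.11 (adjusted p = 3.8e-18) and NOD at -2.78 ± 0.11 (adjusted p = 3.7e-17) from C57, and SPRET and NOD did not pass against each other (0.23 higher in NOD, adjusted p = 0.059).

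Tlr7 and Tlr9 fell in some strains. Tlr7 went from 23.6, 26.8 and 23.9 TPM to 21.3, 18.9 and 17.0 TPM in C57 (-0.36, adjusted p = 0.0061) and from 22.8, 17.5 and 20.0 TPM to 13.3, 10.3 and 11.8 TPM in BALB (-0.72, adjusted p = 4.0e-06). In NOD, PWK and SPRET its change lay between -0.16 and 0.10 and did not pass. Untreated NOD cells held 7.76 to 8.69 TPM of Tlr7 and PWK cells 11.2 and 12.6 TPM, which was -1.49 (adjusted p = 1.7e-12) and -0.99 (adjusted p = 3.6e-08) from C57. Tlr9 was low throughout. It went from 2.61, 3.90 and 2.67 TPM to 2.15, 1.51 and 1.32 TPM in C57 (-0.61, adjusted p = 0.0013) and from 0.839, 1.08 and 1.10 TPM to 0.315, 0.222 and 0.313 TPM in SPRET (-0.64, adjusted p = 0.00059). Its BALB change of -0.47 (adjusted p = 0.012) did not pass without BALB basal replicate 3 (adjusted p = 0.051), and the changes of 0.23 in NOD and -0.34 in PWK did not pass. The NOD response of Tlr9 differed from that of C57 by 0.84 (adjusted p = 0.0024). Alas1, whose gene lies 6572 bases from Tlr9 on chromosome 9, averaged 305 TPM in untreated C57 and 45.8 to 94.6 TPM in the other strains; its part in the Tlr9 values was not tested.

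Tlr3 was between 0.754 and 2.25 TPM in C57, BALB, NOD and SPRET and at most 0.163 TPM in the 5 PWK libraries. Untreated PWK was at -1.55 from C57 (adjusted p = 2.7e-10), and BALB and NOD exceeded PWK by 1.38 (adjusted p = 1.9e-09) and 0.89 (adjusted p = 2.4e-06). An antisense gene, Gm45542, overlaps Tlr3 on the other strand, and whether strand was used in counting is not given in the sources used here. IL-4 changed Tlr3 past the test in BALB (-0.41, adjusted p = 0.011), but not without BALB basal replicate 1 (-0.26, adjusted p = 0.11) or BALB IL-4 replicate 2 (-0.34, adjusted p = 0.068).

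**Figure D2:**
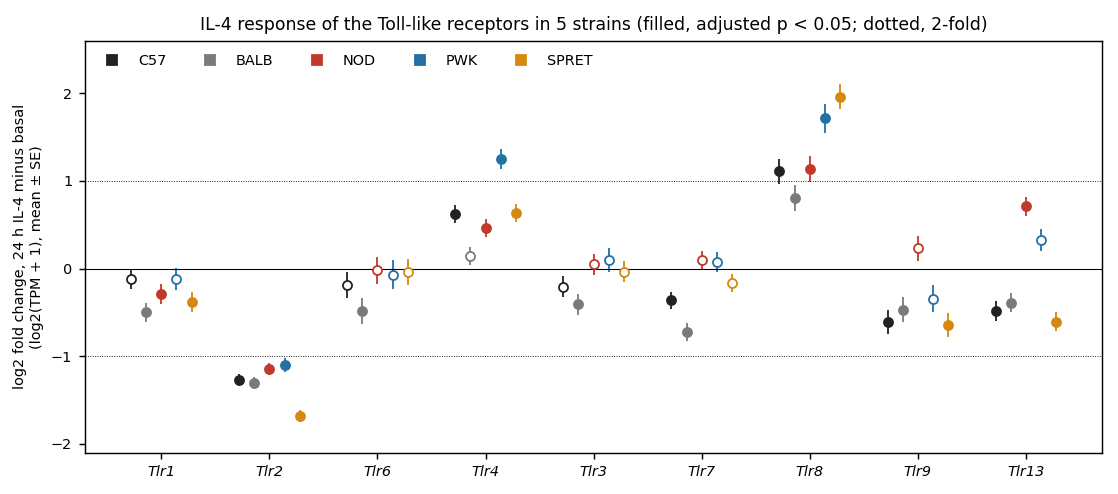
Log2 change of each tested Toll-like receptor after 24 h of IL-4 in the 5 strains, on the log2(TPM + 1) scale with SE. Tlr2 lies between -1.68 and -1.10 in all strains and Tlr8 between 0.81 and 1.96, while Tlr13 is on both sides of 0.

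Counted over the 9 tested receptors at an adjusted p under 0.05, 2 rose and 4 fell in C57 and also in SPRET, where 35.5% and 44.4% of all genes passed in either direction. In BALB 1 rose and 7 fell, against 34.2% of all genes. NOD had 3 that rose and 2 that fell, against 34.3%, and PWK 2 that rose and 1 that fell, against 24.7%. All 6 calls of C57 and of SPRET and all 3 of PWK held without any 1 library of their strain, as did 4 of 8 in BALB and 4 of 5 in NOD. With the further demand of a change over 2-fold, Tlr2 was called in all 5 strains, Tlr8 in all but BALB and Tlr4 in PWK, which made 2 of 9 in C57 against 3.8% of all genes, 1 in BALB against 2.08%, 2 in NOD against 1.19%, 3 in PWK against 2.08% and 2 in SPRET against 3.94%. The median of all genes moved with IL-4 by -0.11 in BALB, -0.04 in C57, 0.08 in PWK, 0.11 in SPRET and 0.12 in NOD. The median of the 9 receptors was lowest in BALB (-0.47), followed by C57 (-0.20), SPRET (-0.16), PWK (0.08) and NOD (0.10), and in PWK and NOD it lay near that of all genes.

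Among untreated cells, 9 of 9 receptors differed between NOD and C57, 7 between PWK and C57, 7 between SPRET and C57 and 6 between BALB and C57 (adjusted p under 0.05), where 74.2%, 61.3%, 68.4% and 43.2% of all genes did. Past 2-fold there were 5 in NOD (Tlr4, Tlr7, Tlr8, Tlr9 and Tlr13, all lower) against 16.9% of all genes, 2 in PWK (Tlr3 and Tlr8, both lower) against 13.3%, and 3 in SPRET (Tlr2 higher, Tlr9 and Tlr13 lower) against 18.1%. At an unadjusted p under 0.05 with no fold limit, 7 receptors differed in BALB by limma, and the share of all genes at that limit is not given here. None was past 2-fold in BALB with an adjusted p under 0.05, against 4.81% of all genes. The calls held without any 1 library for 8 of 9 in NOD, 6 of 7 in PWK, 5 of 7 in SPRET and 2 of 6 in BALB. Those lost were Tlr6 in PWK (0.35, adjusted p = 0.17 without PWK basal replicate 1), Tlr3 and Tlr7 in SPRET (adjusted p = 0.062 and 0.14 without C57 basal replicate 1), and Tlr6 in NOD. The median of all genes lay at -0.30 in NOD and -0.16 in PWK relative to C57. With libraries scaled to a common median ratio the NOD differences became -2.42 for Tlr13, -2.72 for Tlr8, -1.55 for Tlr4, -1.13 for Tlr7, -0.94 for Tlr9 and 0.71 for Tlr2, and that of Tlr6 (-0.37 as deposited, adjusted p = 0.031) went to -0.04. The SPRET difference of Tlr9, -1.0 (adjusted p = 7.6e-07), was -0.86 without C57 basal replicate 2 and -0.94 without SPRET basal replicate 1. Tlr1 and Tlr6 were higher in BALB than in C57, by 0.47 (adjusted p = 0.0012) and 0.76 (adjusted p = 0.00021), and the 4 lower values there (Tlr4, Tlr7, Tlr9 and Tlr13, -0.36 to -0.26) each failed when a library was left out, with BALB basal replicate 2 among those libraries for every gene (adjusted p of 0.077 to 0.28).

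The difference in response between each strain and C57 passed for 4 of 9 receptors in PWK against 22.4% of all genes, 3 in NOD against 33.3%, 2 in SPRET against 33.4% and 1 in BALB against 15.8%. All 4 in PWK and all 3 in NOD were positive. The median difference of all genes was 0.17 in NOD, 0.16 in SPRET, 0.13 in PWK and -0.07 in BALB. In NOD 26.0% of all genes passed with a positive difference and 7.32% with a negative one. These comparisons share the C57 libraries. Differences that held without any 1 library were those of Tlr9 and Tlr13 in NOD, Tlr4 and Tlr13 in PWK and Tlr2 and Tlr8 in SPRET.

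Of 48 other genes of the pathway, in lists of co-receptors, adaptors, chaperones, kinases and ubiquitin ligases, inhibitors and transcription factors, 46 were tested. After 24 h of IL-4, 14 rose and 12 fell in SPRET, 11 rose and 14 fell in C57, 5 rose and 19 fell in BALB, 12 rose and 7 fell in NOD and 10 rose and 9 fell in PWK, against the shares of all genes given above for the receptors. In the longest list, 15 kinases and ubiquitin ligases, 6 fell in C57 and 8 in BALB with 0 rising, 3 rose and 2 fell in NOD and in SPRET, and 1 rose and 1 fell in PWK; the C57 count is near the share of all genes. The other 5 lists held 4 to 9 tested genes each, with at most 4 called in either direction. Cd36, a scavenger receptor that presents lipids to Tlr2, rose from 99.5 to 269 TPM in C57 (1.42), by 2.07 in SPRET and 1.84 in PWK and by 0.90 in NOD and 0.81 in BALB. Irak3, a kinase-dead inhibitor of Myd88 signalling, fell from 27.4 to 11.7 TPM in C57 (-1.16), and on the log2 scale fell by 1.57 in SPRET, by 0.78 and 0.89 in NOD and PWK and by 1.14 in BALB. Socs1, a feedback inhibitor of cytokine and Toll-like receptor signalling, rose from 2.17 to 22.3 TPM in C57 (2.91) and from 0.279 to 65.8 TPM in SPRET (5.70), and by 1.18 in BALB and 0.95 in PWK, while in NOD its change was -0.21 (adjusted p = 0.44). Cd14, which hands lipopolysaccharide to Tlr4, fell by 1.85 in SPRET, 1.18 in BALB, 0.41 in C57 and 0.33 in NOD and did not pass in PWK (-0.12). Hsp90b1, a chaperone that Toll-like receptors need to fold, rose in all 5 strains, by 0.16 to 0.61. Cd14 and Hsp90b1 were picked out after their values were seen.

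The time course gave the order of these changes in C57 and SPRET. Tlr4 and Tlr8 were up within 1 h, Tlr2 came down from 1 h and reached its low level by 6 h, and Tlr9 was lower at 24 h than at 6 h. Levels in this table are not comparable with those of the 5-strain table: in untreated C57 the time course exceeded the 5-strain value by a median of 1.03 on the log2 scale for genes of 5000 to 8000 bases and by -0.51 for genes of at most 1000 bases, and the receptors' transcripts are 2596 to 7886 bases long.

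In C57 Tlr8 stood at 46.6 and 45.0 TPM untreated, 101 and 97.6 TPM at 1 h, 134 and 154 TPM at 6 h and 59.9 and 65 TPM at 24 h. In this table the peak came at 6 h and most of the gain had gone by 24 h. The change was 1.10 at 1 h (adjusted p = 3.4e-07), 1.63 at 6 h (adjusted p = 4.4e-09) and 0.44 at 24 h (adjusted p = 0.00017). The 24 h change of Tlr8 was larger in C57 of the 5-strain table (1.11) and in the Egr2 fl/fl controls (1.21). Why these 24 h changes differ was not tested. In SPRET Tlr8 stood at 99.9 and 107 TPM, then 224 and 225 TPM, then 298 and 300 TPM, and at 24 h still at 237 and 226 TPM. The SPRET change was 1.11, 1.52 and 1.15 at the 3 times, and at 24 h it exceeded that of C57 by 0.72 ± 0.09 (adjusted p = 0.0001). At 1 and 6 h the strains' responses of Tlr8 differed by 0.01 (adjusted p = 0.99) and -0.10 (adjusted p = 0.56).

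Tlr4 was highest at 1 h in both strains. In C57 it went from 29.5 and 29.6 TPM to 59.6 and 60.8 TPM at 1 h, 43.7 and 46.4 TPM at 6 h and 39.4 and 40.0 TPM at 24 h, and in SPRET from 29.4 and 33.8 TPM to 59.7 and 62.6, then 40.7 and 43.1, then 36.0 and 36.3 TPM. The 1 h change was 1.00 in C57 (adjusted p = 8.8e-07) and 0.93 in SPRET (adjusted p = 6.9e-07), and the drop from 1 to 6 h was -0.41 (adjusted p = 0.00089) and -0.54 (adjusted p = 5.6e-05). At 24 h the change of 0.19 in SPRET (adjusted p = 0.035) did not pass without time course SPRET basal replicate 1 (0.10, adjusted p = 0.30) or either 24 h library of SPRET. Tlr2 in C57 went from 80.6 and 81.0 TPM to 55.5 and 56.6 TPM at 1 h, 21.6 and 22.9 TPM at 6 h and 18.4 and 19.4 TPM at 24 h. In SPRET it went from 231 and 259 TPM to 129 and 138, 52.0 and 58.8, and 44.8 and 54.2 TPM. By 24 h the change was -2.04 in C57 and -2.29 in SPRET (adjusted p = 4.0e-09 and 1.4e-09), and between 6 and 24 h neither strain passed.

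**Figure D3:**
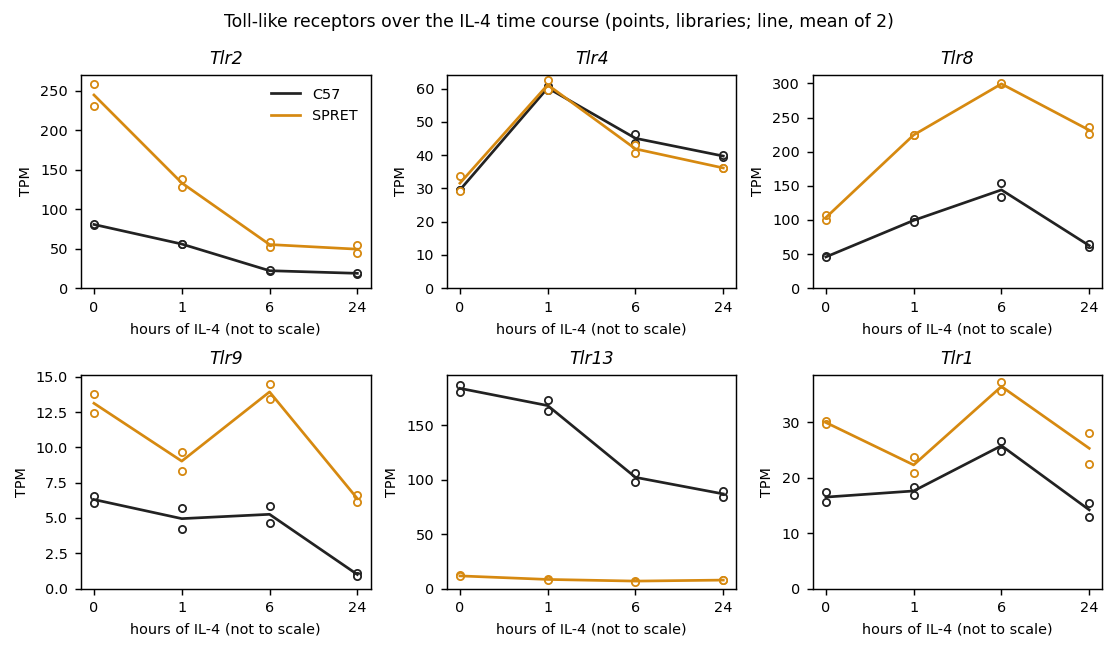
Level in TPM of Tlr1, Tlr2, Tlr4, Tlr8, Tlr9 and Tlr13 in C57 and SPRET macrophages at 0, 1, 6 and 24 h of IL-4, each library a point. Tlr8 peaks at 6 h in both strains, with 62.5 TPM left on average at 24 h in C57 and 232 TPM in SPRET, and Tlr13 stays at or below 12.0 TPM in SPRET.

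Tlr9 in C57 was at 6.52 and 6.08 TPM untreated and at 1.08 and 0.916 TPM at 24 h (-1.87 ± 0.13, adjusted p = 3.1e-07), after 4.23 and 5.67 TPM at 1 h and 5.87 and 4.64 TPM at 6 h. In SPRET it was at 12.4 and 13.8 TPM untreated, 9.70 and 8.35 TPM at 1 h, 13.4 and 14.5 TPM at 6 h and 6.65 and 6.10 TPM at 24 h (-0.94, adjusted p = 0.00013). The SPRET change at 1 h (-0.50, adjusted p = 0.037) did not pass once any 1 of its 4 libraries was left out (-0.59 to -0.40, adjusted p of 0.056 to 0.23), and the rise from 1 to 6 h was 0.58 (adjusted p = 0.0061). The strain difference at basal, 0.95 higher in SPRET (adjusted p = 4.9e-05), had the opposite sign to the 5-strain table, where it was -1.0. Tlr13 fell in C57 from 187 and 180 TPM to 97.9 and 106 TPM at 6 h and 84.0 and 89.6 TPM at 24 h (-1.07, adjusted p = 9.4e-07), and in SPRET from 12.0 and 11.2 TPM to 8.08 and 7.44 TPM at 24 h (-0.52, adjusted p = 0.00041). Untreated SPRET was again far below C57 (-3.87 ± 0.09, adjusted p = 3.6e-12). Tlr1 reached its highest level at 6 h, 24.8 and 26.6 TPM in C57 from 17.4 and 15.6 TPM untreated (0.61, adjusted p = 0.0016), and 37.3 and 35.5 TPM in SPRET from 30.1 and 29.7 TPM (0.27, adjusted p = 0.080). By 24 h Tlr7 had fallen in both strains (-0.40 in C57, adjusted p = 0.0053, and -0.80 in SPRET, adjusted p = 2.8e-05), and Tlr6 in C57 (-0.72, adjusted p = 1.9e-05).

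Past 2-fold with an adjusted p under 0.05, 2 of 9 receptors were called in C57 at 1 h, 2 at 6 h and 3 at 24 h, where 0.877%, 2.13% and 5.76% of all genes were. In SPRET 1, 2 and 2 receptors were called, against 1.89%, 4.57% and 5.62% of all genes. The C57 call of Tlr4 at 1 h sat at the limit and went to 0.99 when a library was left out. Between the untreated strains 3 receptors (Tlr2, Tlr8 and Tlr13) were past 2-fold, against 18.8% of all genes. The 24 h response differed between SPRET and C57 for 5 receptors, against 28.9% of all genes, and for 4 of them (Tlr6, Tlr8, Tlr9 and Tlr13) it held without any 1 library.

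In the Egr2 table, the transcription factor Egr2 itself averaged 22.5 TPM in untreated Egr2 fl/fl cells and 100.1 TPM after 24 h of IL-4, against 0.857 and 5.89 TPM in LyzM-Cre Egr2 fl/fl cells. Tlr2 fell and Tlr8 rose with IL-4 in both genotypes, and several receptors were higher in LyzM-Cre Egr2 fl/fl cells. The words "without Egr2" below stand for these LyzM-Cre Egr2 fl/fl cells, in which Egr2 RNA was low but not absent. Only their labels name Cre, so the presence of Cre and the loss of Egr2 cannot be told apart. No receptor differed by 2-fold between the genotypes. At 24 h of IL-4, 6 receptors were higher in LyzM-Cre Egr2 fl/fl cells and 1 was lower (adjusted p under 0.05). In that comparison 37.4% of all genes passed in either direction, and 5 of the 7 receptor calls held without any 1 library.

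Tlr4 stood at 46.3 and 52.8 TPM untreated and 63.1 and 63.6 TPM at 24 h in Egr2 fl/fl cells, and at 68.9 and 61.2 TPM untreated and 107 and 113 TPM at 24 h in LyzM-Cre Egr2 fl/fl cells. The 24 h difference was 0.78 ± 0.07 (adjusted p = 6.2e-06), and both LyzM-Cre libraries lay above both controls. Tlr9 at 24 h was at 8.05 and 7.89 TPM in the controls and 15.5 and 14.5 TPM without Egr2 (0.83 ± 0.09, adjusted p = 2.9e-05). Alas1, the neighbour of Tlr9, averaged 481 TPM in the controls and 77.4 TPM without Egr2 at 24 h, and 369 and 105 TPM untreated; its part in the Tlr9 difference was not tested. Tlr7 at 24 h was at 67.0 and 66.3 TPM against 105 and 101 TPM (0.62, adjusted p = 6.5e-05), and Tlr3 at 7.08 and 5.90 TPM against 11.4 and 10.3 TPM (0.66, adjusted p = 0.00085). Tlr13 went the other way, with 118 and 121 TPM in the controls and 86.4 and 95.9 TPM without Egr2 (-0.39, adjusted p = 0.00027). Tlr2 (0.39, adjusted p = 0.0065) and Tlr8 (0.27, adjusted p = 0.010) did not pass without LyzM-Cre Egr2 fl/fl IL-4 24 h replicate 1, where they were 0.26 (adjusted p = 0.074) and 0.23 (adjusted p = 0.073), and Tlr8 also not without Egr2 fl/fl IL-4 24 h replicate 1 (0.25, adjusted p = 0.061). The median of all genes moved by 0.12 in this comparison.

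Tlr8 reached 175 and 178 TPM at 6 h in Egr2 fl/fl cells from 49.2 and 51.4 TPM untreated (1.79, adjusted p = 4.2e-09), and 152 and 129 TPM from 67.1 and 62.9 TPM in LyzM-Cre Egr2 fl/fl cells (1.09, adjusted p = 2.4e-07). The 6 h response without Egr2 differed from that of the controls by -0.70 ± 0.10 (adjusted p = 0.0055), and this held without any 1 library. At 24 h Tlr8 was at 116 and 119 TPM against 145 and 138 TPM, and the responses no longer differed past the test (-0.09, adjusted p = 0.62). Tlr2 fell in the controls from 75.4 and 77.5 TPM to 18.2 and 19 TPM (-1.98, adjusted p = 1.2e-08) and without Egr2 from 109 and 99.0 TPM to 27.0 and 22.5 TPM (-2.03, adjusted p = 8.0e-09), with a difference of -0.05 (adjusted p = 0.87). Tlr5 was between 0.082 and 0.827 TPM in this table.

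Counting adjusted p under 0.05 alone, 5 receptors were higher and 0 lower without Egr2 in untreated cells, where 11.5% of all genes passed. There were 5 higher and 0 lower at 1 h against 11.4%, 4 higher and 2 lower at 6 h against 20.6%, and 6 higher and 1 lower at 24 h against 37.4%. The calls that held without any 1 library were Tlr7 untreated, none at 1 h, Tlr8 and Tlr13 at 6 h, and Tlr3, Tlr4, Tlr7, Tlr9 and Tlr13 at 24 h. At an unadjusted p under 0.05 with no fold limit, limma gave 6, 6, 7 and 7 receptors in time order. The share of all genes at that limit is not given here. Past 2-fold with an adjusted p under 0.05, limma called 0 of 9 at each time, where 0.853%, 1.06%, 2.3% and 4.55% of all genes were called. IL-4 for 24 h changed 3 receptors past 2-fold in the Egr2 fl/fl controls (Tlr2, Tlr8 and Tlr9) against 4.35% of all genes. The 24 h response differed between the genotypes for Tlr4 and Tlr13, 2 of 9 against 12.6% of all genes, and both calls were lost when single libraries were left out, with Tlr4 at 0.31 (adjusted p = 0.12) without LyzM-Cre Egr2 fl/fl basal replicate 2 and Tlr13 at -0.31 (adjusted p = 0.064) without LyzM-Cre Egr2 fl/fl basal replicate 1. Of the 46 pathway genes, 22 were higher and 5 lower without Egr2 at 24 h, against 37.4% of all genes passing in either direction. The median of all genes lay 0.12 higher in that comparison. Past 2-fold, 292 of all genes were higher and 258 lower as deposited, and 221 and 328 with median-ratio scaling.

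**Figure D4:**
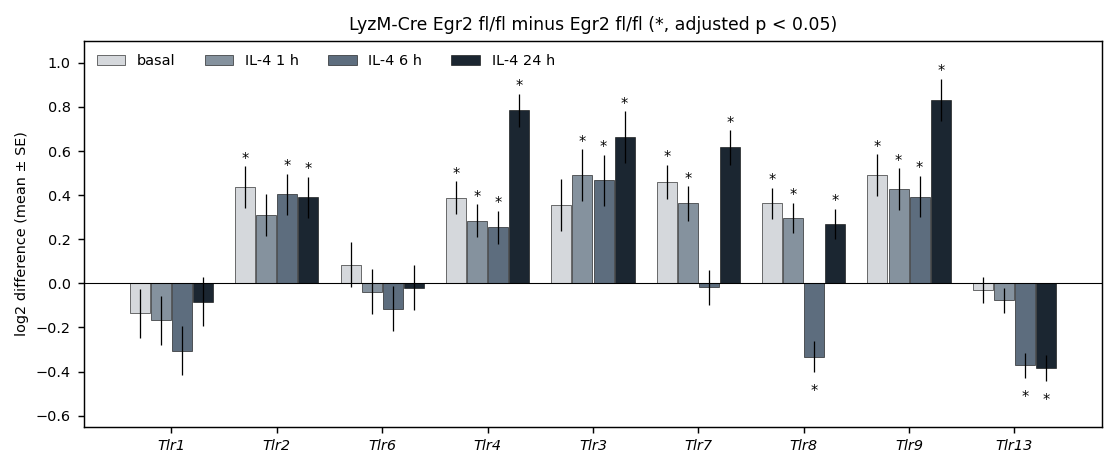
Log2 difference of each tested Toll-like receptor between LyzM-Cre Egr2 fl/fl and Egr2 fl/fl macrophages at each time of IL-4, on the log2(TPM + 1) scale with SE. At 24 h Tlr9 (0.83) and Tlr4 (0.78) lie highest and Tlr13 (-0.39) lowest.

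F1 macrophages carry both alleles and were made to ask whether a strain difference stays with the allele. Tlr7, Tlr8 and Tlr13 are on the X chromosome, and a cell of a female mouse largely uses 1 of its X chromosomes, so for them an unequal use of the parental X over the cells and a difference between alleles cannot be told apart from 1 gene's ratio. The F1 values are allele levels, assigned by the authors from reads that overlap variants, and are described here without a test because only 2 libraries were made per state. Ratios are log2 of the C57 allele over the other, with 1 added to each. Other genes of the X chromosome with both alleles at 1 or more had a median ratio of 0.14 to 0.44 per library in the cross with NOD (38 to 54 genes) and of -0.20 to -0.12 in the cross with SPRET (284 to 320 genes), against medians of -0.06 to 0.01 over genes elsewhere. In the cross of C57 with SPRET, the C57 allele of Tlr13 stood at 186 and 171 and the SPRET allele at 51.6 and 47.1 in untreated cells. The ratio was 1.84 ± 0.01 (SD, n = 2), against 3.01 between the parents in the 5-strain table and 3.87 in the time course. After IL-4 the alleles stood at 71.4 and 78.0 against 20.4 and 43.4, a ratio of 1.29 ± 0.66. In the cross of C57 with NOD, untreated Tlr13 was at 70.5 and 78.1 from the C57 allele and 15.9 and 18.8 from the NOD allele, a ratio of 2.04 ± 0.06 against 2.78 between the parents. After IL-4 the 2 libraries of that cross disagreed, with ratios of 2.04 and -0.79.

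Tlr8 in both crosses and Tlr2 in the cross with SPRET had smaller ratios in F1 cells than between the parents. The Tlr2 alleles of C57 and SPRET stood at 175 and 190 against 213 and 256 untreated (-0.36 against -1.48 between the parents) and at 42.4 and 34.8 against 40.1 and 33.4 after IL-4 (0.07 against -1.07). In the cross with NOD the untreated Tlr2 ratio was -0.59 against -0.32 between the parents, and its 2 libraries went opposite ways (-1.73 and 0.56). Tlr8 in the cross with SPRET had ratios of -0.11 untreated and -0.15 after IL-4, where the parents differed by -0.46 and -1.32. In the cross with NOD, Tlr8 alleles stood at 35.5 and 15.3 against 17.1 and 13.9 untreated, a ratio of 0.57 against 2.88 between the parents, and Tlr4 alleles at 4.61 and 3.06 against 5.38 and 4.26, a ratio of -0.28 against 1.82. Untreated Tlr9 in the cross with NOD was higher from the C57 allele in both libraries (23.3 and 44.0 against 3.67 and 9.68). In the cross with SPRET it was also higher untreated (77.0 and 74.0 against 55.5 and 56.7, a ratio of 0.42). After IL-4 the Tlr9 ratio of the cross with SPRET had the other sign (-0.26, with libraries at -0.38 and -0.14). The untreated parents of that cross differed by 1.00 in the 5-strain table and by -0.95 in the time course. Tlr1 and Tlr6 were higher from the SPRET allele, with untreated ratios of -0.82 and -0.64, and Tlr4, Tlr3 and Tlr7 had untreated ratios of 0.20, -0.11 and -0.07 in that cross. Tlr1, Tlr3, Tlr5, Tlr6 and Tlr7 are listed at 0 for both alleles in every library of the cross with NOD, in which 78.9% to 83.6% of genes are at 0 in a column. A 0 there can mean that no read was assigned to either allele.

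**Figure D5:**
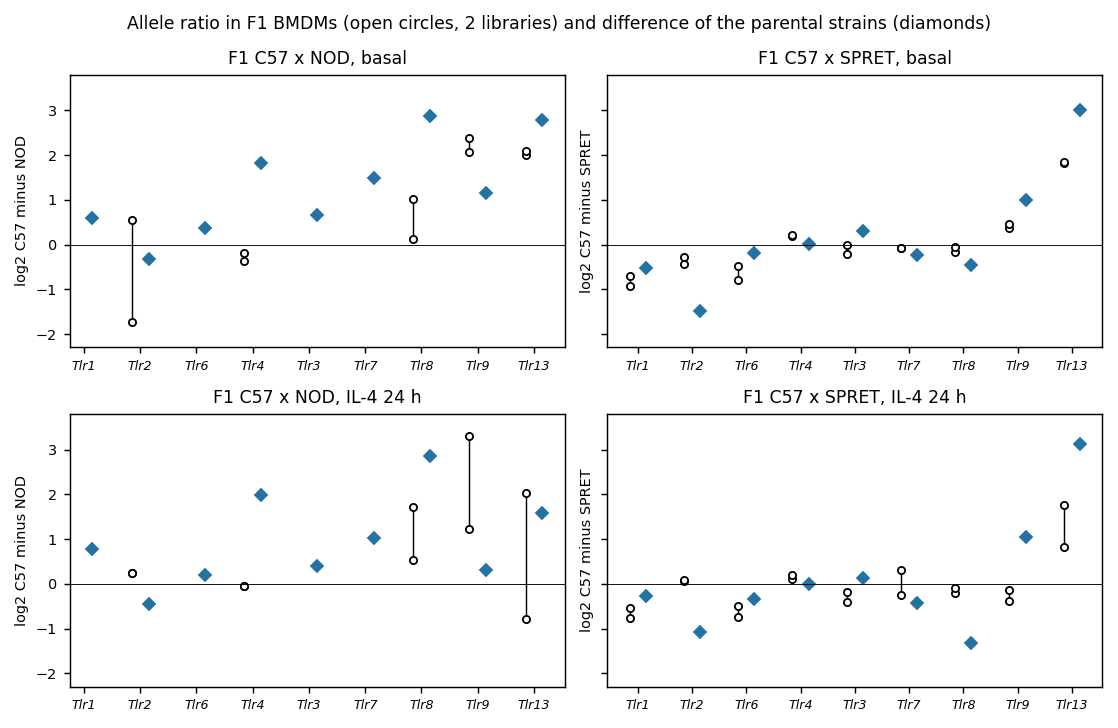
Log2 ratio of the C57 allele over the other allele in F1 macrophages (open circles, 1 per library) beside the difference between the parental strains (diamonds), for each cross untreated and after 24 h of IL-4. In untreated cells of both crosses Tlr13 keeps a ratio of 1.83 or more in each library, while Tlr8 and Tlr4 of the cross with NOD lie closer to 0 than the parents' 2.88 and 1.82.

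The genes whose levels followed each receptor most closely over the 29 libraries of the 5-strain table are given as a description, since libraries of a strain and state are not independent. For Tlr2 these were Rab32 and Osbpl3 (Pearson r = 0.94 and 0.93 on the log2 scale), for Tlr4 Slc41a2 and Nabp1 (0.97 and 0.96), for Tlr8 Ppp1r21 and Itsn1 (both 0.97) and for Tlr13 Ezh1 and Selenon (0.97 and 0.96). Tlr7 was closest to Pik3cg and Ikbkb (0.98 and 0.97), Tlr9 to Aim1 and Pik3ap1 (both 0.90), Tlr3 to Pld2 and Adck2 (0.94 and 0.93), Tlr1 to Pygl and Abcc4 (0.93 and 0.91) and Tlr6 to Alpk1 and Stx7 (both 0.89). Among the receptors themselves the closest pairs were Tlr4 with Tlr8 (0.90) and Tlr9 with Tlr13 (0.86), and Tlr2 with Tlr13 had the lowest value (-0.39).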

How the data were processed

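The TPM values in the tables of parental cells were made by the authors: reads were mapped with STAR to strain-specific genomes whose positions were carried to mm10, and HOMER scaled tags over exons to TPM, with each table normalised separately. For the F1 cells the authors scaled read counts by the ratio of reads overlapping variants to assign them to alleles. Their methods also drop transcripts lacking reads for an allele, but the deposited values used here still list such transcripts. In the cross with NOD after IL-4, Tlr9 had a NOD allele at 0 in a library, with the C57 allele at 7.625 or more. These deposited values also carry the unit TPM in the tables. Allele columns of the cross with SPRET sum to between 684282 and 700521 each, whether each allele was scaled on its own is not given in the sources used here, and 99.3% of lengths in that table are genomic spans and not transcript lengths, so its levels are compared only between alleles of a gene. Columns of the authors' own DESeq2 comparisons (log2 fold changes and p-values) and a table of human macrophages were not used. TPM keeps no counting depth, so the precision rests on the spread between libraries; the tag totals in the file headers are given in the report.

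For each parental table a linear model with a mean per group was fitted to log2(TPM + 1) over all genes with at least 1 TPM in 2 libraries (11907, 12088 and 12079 genes) with limma 3.58.1 in R 4.3.3, using a mean-variance trend in the moderation. P-values were Benjamini-Hochberg adjusted over all genes tested, and a call needed an adjusted p under 0.05 and, where stated, over 2-fold change. Differences in response were tested as interaction terms. In simulated data drawn at the real levels with 200 genes changed by 1.5 or 2 on the log2 scale, 97% to 99.5% were recovered in 3 comparisons of the 5-strain table and 93% to 97.5% in 2 of the other tables, with at most 4.9% of calls false; smaller changes were not simulated. The members and the gene lists were chosen with earlier results of these data known. Alternatives were pseudocounts of 0.1 and 5 TPM, no filter, median-ratio and quantile scaling, a fit of the compared groups alone, a replicate block, and leaving out each library. Genes named beside the receptors were the 2 with the highest correlation for each receptor, and pathway genes past 2-fold in at least 3 strains. Promoters came from RefSeq, build GRCm38.p6, and motifs were searched on both strands of the 250 bases before each start. Same-numbered replicates did not deviate together on average (mean r of 0.013, 0.030 and -0.0046 in the 3 tables). Single pairs ranged from -0.134 to 0.333 in the 5-strain table, -0.143 to 0.266 in the time course and -0.139 to 0.057 in the Egr2 table. A mean of r does not show whether certain libraries shared a preparation.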

Additional observations from a re-analysis of the deposited data

Results flagged for a closer look

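The results named here are receptors whose IL-4 response differed between strains or genotypes in an interaction test (limma, adjusted p over all genes). Against C57 at 24 h in the 5-strain table, the response differed for Tlr13 in NOD by 1.2 ± 0.15 (adjusted p = 2.1e-06) and in PWK by 0.81 ± 0.16 (adjusted p = 0.00079), for Tlr9 in NOD by 0.84 ± 0.20 (adjusted p = 0.0024), for Tlr7 in NOD by 0.46 ± 0.14 (adjusted p = 0.016) and in PWK by 0.44 ± 0.15 (adjusted p = 0.037), for Tlr4 in PWK by 0.63 ± 0.15 (adjusted p = 0.0042) and in BALB by -0.48 ± 0.14 (adjusted p = 0.025), for Tlr8 in PWK by 0.61 ± 0.22 (adjusted p = 0.047) and in SPRET by 0.85 ± 0.21 (adjusted p = 0.0024), and for Tlr2 in SPRET by -0.41 ± 0.10 (adjusted p = 0.0028). The weaker ones were lost without a library: Tlr4 in BALB was -0.35 (adjusted p = 0.095) without BALB basal replicate 1, Tlr7 in NOD 0.38 (adjusted p = 0.054) without C57 IL-4 replicate 3, and in PWK Tlr7 was 0.36 (adjusted p = 0.19) and Tlr8 0.42 (adjusted p = 0.29) without PWK basal replicate 2.

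In the time course the 24 h response of SPRET differed from that of C57 for Tlr9 by 0.93 ± 0.19 (adjusted p = 0.0027), Tlr8 by 0.72 ± 0.09 (adjusted p = 0.0001), Tlr13 by 0.55 ± 0.12 (adjusted p = 0.0051), Tlr6 by 0.47 ± 0.12 (adjusted p = 0.0085) and Tlr7 by -0.40 ± 0.13 (adjusted p = 0.041, and 0.15 without time course SPRET basal replicate 2, where it was -0.27). For Tlr8 the 5-strain table gave a difference of the same sign between these strains (0.85), for Tlr6 it was 0.15 (adjusted p = 0.62), and for Tlr7, Tlr13 and Tlr9 the sign was the opposite, at 0.20 (adjusted p = 0.30), -0.12 (adjusted p = 0.58) and -0.04 (adjusted p = 0.91).

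Between LyzM-Cre Egr2 fl/fl and Egr2 fl/fl cells the response differed for Tlr8 at 6 h by -0.70 ± 0.10 (adjusted p = 0.0055), and at 24 h for Tlr4 by 0.40 ± 0.11 (adjusted p = 0.029) and Tlr13 by -0.36 ± 0.08 (adjusted p = 0.014).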

How the results depend on the processing

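Over the 26 counts of called receptors, the replicate block moved none by over 1.5 times. Same-numbered libraries share only a number. Counts given for the response of a strain or of Egr2 are of differences in response from C57 or from the controls. A pseudocount of 5 TPM moved 7 counts, to 1 from 2 at 24 h in C57, 1 from 2 in NOD and 1 from 3 in PWK, to 3 from 5 between untreated NOD and C57 and 1 from 2 between untreated PWK and C57, to 5 from 3 for the NOD response, and to 1 from 2 at 1 h in the C57 time course; 0.1 TPM moved the SPRET time course at 24 h to 4 from 2. No filter gave 2 for the PWK response (from 4), and median-ratio and quantile scaling both gave 2 there, 1 for C57 at 1 h (from 2) and 1 for the Egr2 24 h response (from 2). Fitting the compared groups alone gave 0 for the BALB response (from 1), 2 for PWK and 1 for Egr2. Leaving out a library gave 0 to 4 for the BALB response, 2 to 4 for PWK, 2 to 3 for NOD and for SPRET, 0 to 1 for Egr2, 1 to 2 for C57 at 24 h and for C57 and SPRET at 1 h, 2 to 3 for SPRET at 24 h of the time course and for untreated PWK and SPRET, and 3 to 4 for the untreated time course. At 5 TPM the sign reversed for the difference in Tlr8 response from C57, in NOD (-0.49, adjusted p = 0.0072) and PWK (-0.0043). Other reversed signs were those of Tlr2 after IL-4 between PWK and SPRET (0.21 by median ratio and 0.17 by quantile). The last was that of untreated Tlr6 between NOD and C57 by quantile (0.0037). The cause of these moves was not tested. Of 29 F1 ratios a pseudocount of 0.1 moved 5, with Tlr9 of the cross with NOD after IL-4 at 3.99. Scaling by median ratio or quantile made the change of Tlr7 in NOD and PWK negative (-0.072 and -0.038 by median ratio), neither passing. Depth is not kept in TPM, so receptors near 0, such as Tlr5 and Tlr3 in PWK, have no counting limit here.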
